A study of Arabidopsis thaliana with 6 samples.

Results

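The genes of the cytosolic small ribosomal subunit were followed through RNA immunoprecipitation of the Arabidopsis thaliana protein ASI1. The 59 nuclear genes were given as a list of loci and fall into 25 protein families. Of these 59 genes, 47 were listed in at least one of the deposited tables, among 6351 listed genes in all. There were 28 of them in the table for ASI1 and 45 in that for WT, with 26 in both, 2 for ASI1 alone, 19 for WT alone and 12 in neither. Every listed gene had a value above 0 in 2 or more of a table's 3 libraries, which is taken here as the listing filter. The sources used here do not state the rule, and other filters may have acted. The 47 genes are those that were listed and not all members.

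RIP-seq sequences the RNA that comes down with a protein. Whole seedlings of the Col-0 accession, 14 d old, were grown at 22 °C in 16 h of light and 8 h of darkness with 1% sucrose and crosslinked with 0.5% formaldehyde, and an anti-Flag antibody was used. The genotype ASI1 gave 2 RIP libraries (n = 2) and 1 input library, which is RNA before precipitation, and the genotype WT gave the same set. The antibody and the group names imply Flag-tagged ASI1 in the first genotype and no tag in WT. No promoter for a transgene and no number of lines is given in the sources used here. Separate cultures are not named for the replicates, so each p-value reflects the spread of these RIP libraries, which may be technical, and the inputs have no spread of their own.

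The small subunit, called 40S, binds the mRNA and reads its codons, and it is built from 18S ribosomal RNA (rRNA) and one copy of each of its proteins. In Arabidopsis nearly every one of these proteins is encoded by a small family of paralogous genes, which are highly transcribed in dividing tissue. Their mRNAs are among the abundant, stable transcripts of growing seedlings, and abundant transcripts of this kind are often carried along in precipitations. ASI1 itself is a nuclear RNA-binding protein that, together with EDM2 and AIPP1, promotes full-length transcripts of genes with heterochromatin inside an intron. It is not known as a component of the ribosome.

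rRNA took 79.9% to 99.5% of the counts of a library, so levels are given as CPM taken over the counts outside the 4 rRNA genes (CPM outside rRNA). These counts numbered 23810 in the ASI1 input and 448561 and 362058 in its RIP replicates 1 and 2. For WT they numbered 61644 in the input and 23304 and 103549 in the RIP replicates. A single count was therefore worth 42.0 CPM outside rRNA in the ASI1 input and 42.9 in WT RIP replicate 1, but 2.23 in ASI1 RIP replicate 1. Of the markers of a seedling shoot, 7 of 9 photosynthesis genes were listed in each table, at a summed 19547 CPM outside rRNA in the ASI1 input and 41024 in the WT input. In the RIP replicates their sum was 9903 and 6091 for ASI1 and 12405 and 42683 for WT. Of 7 root genes, 4 and 3 were listed, at a summed 2419 CPM outside rRNA in the ASI1 input and 836 in the WT input, 969 and 785 in the ASI1 RIP and 357 and 223 in the WT RIP. Of 4 seed storage genes none was listed for ASI1 and OLEO1 alone for WT, at 16.7, 44.6 and 943 CPM outside rRNA in the input and RIP replicates 1 and 2. The part of these differences in the 40S values was not tested.

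Paralogs of a family are alike in sequence, which limits how far reads can be divided among them. Over the 44 pairs of paralogous members, coding sequences from the RefSeq annotation of TAIR10.1 were 68.4% to 98.2% identical, with a median of 85.0%. The longest run of identical bases in a pair ranged from 18 to 114, the last in the RPS16 pair. No build is named in the sources used here; every listed gene identifier (100%) was found in TAIR10.1. XW6 (AT1G58380, RPS2 family) is 97.5% identical to each of AT1G58684, AT1G58983 and AT1G59359, so its reads are uncertain. RPS15 and its paralog AT5G09510, which were recovered very unlike each other, are 89.3% identical over 459 coding bases. The window of 90 coding bases within 1 exon in which they differ most lies in coding exon 4 of both genes, coding bases 358 to 447, at chr1:1141864-1141953 (minus strand) and chr5:2955710-2955799 (minus strand). Capitals mark the 12 positions at which the paralogs differ.

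AT1G04270 (RPS15): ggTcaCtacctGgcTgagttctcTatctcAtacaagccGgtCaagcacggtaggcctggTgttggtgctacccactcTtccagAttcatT
AT5G09510: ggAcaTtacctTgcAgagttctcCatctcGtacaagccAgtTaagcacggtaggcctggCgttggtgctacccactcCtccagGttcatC

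The RPS4 genes, the one family with every paralog well covered in both ASI1 RIP libraries, are 88.7% to 90.8% identical in pairs. Their most different window, coding bases 100 to 189 in coding exon 3, lies at chr2:7547173-7547262, chr5:2202936-2203025 and chr5:23620108-23620197, all on the plus strand. Capitals mark the 19 positions at which the 3 genes are not all alike.

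AT2G17360: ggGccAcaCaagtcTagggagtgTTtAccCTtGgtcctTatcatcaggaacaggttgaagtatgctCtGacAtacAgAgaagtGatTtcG
AT5G07090: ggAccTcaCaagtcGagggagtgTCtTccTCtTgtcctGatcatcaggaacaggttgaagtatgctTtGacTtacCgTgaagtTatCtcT
AT5G58420: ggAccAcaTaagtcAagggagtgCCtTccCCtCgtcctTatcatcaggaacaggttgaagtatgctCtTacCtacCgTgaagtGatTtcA

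In the inputs the 40S transcripts formed a broad, low layer. The 28 members listed for ASI1 had 1.03 to 18.5 counts each in the ASI1 input, with a median of 5.66, and none reached 20 counts. The 45 members listed for WT had 0 to 27.8 counts in the WT input, with a median of 6.18, and 2 reached 20 counts. Together the members held 0.734% of the counts outside rRNA in the ASI1 input (exact 95% binomial interval 0.630 to 0.852, counting error only) and 0.555% in the WT input (0.498 to 0.617). Over the 26 members listed for both genotypes, Spearman's rho between the inputs was 0.565, a description of 2 libraries in which most values are a few counts.

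Per kilobase of transcript the leading members of the inputs were few and partly shared. In the ASI1 input they were AT4G34670 (RPS3a family) at 592 CPM outside rRNA per kb, AT2G41840 (RPS2 family) at 585 and RPS15 at 562, against a median of 189 over the listed members. In the WT input AT3G02080 (RPS19 family) at 388 CPM outside rRNA per kb and AT5G62300 (RPS20 family) at 340 were among the 3 highest, against a median of 85.0. RPS15, whose protein reaches toward the decoding site, was also high in the WT input, at 326 CPM outside rRNA per kb. No 40S gene had more than 27.8 counts in an input, so neighbours in this order cannot be told apart at this depth.

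**Figure D1:**
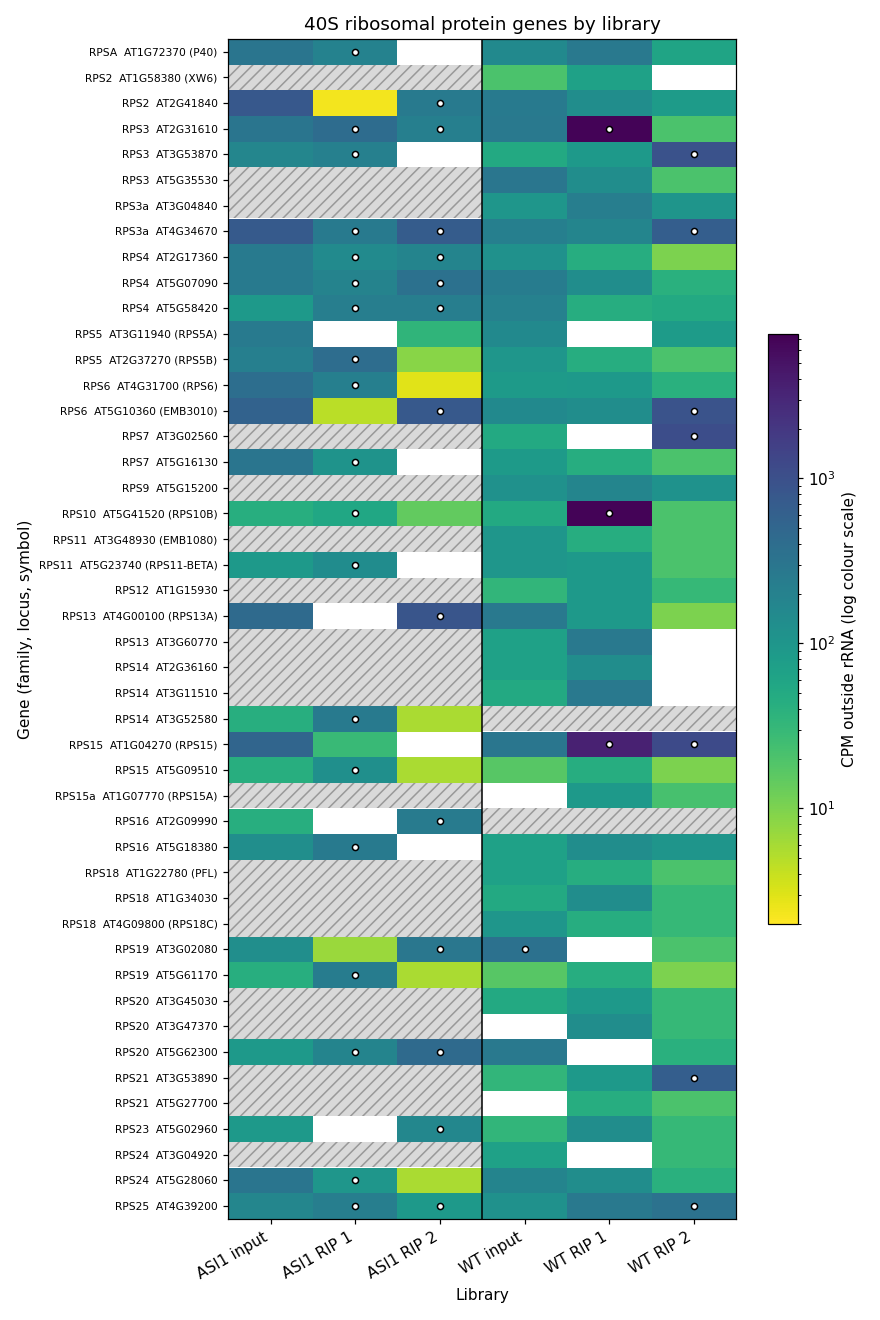
Level of listed 40S genes (rows, by family; 1 family is not shown) in the 6 libraries (columns), as CPM outside rRNA on a log colour scale. White cells are at 0 or below 2 CPM outside rRNA, hatched cells belong to a gene not listed in that table, and circles mark at least 20 counts: 7 members have circles in both ASI1 RIP libraries and RPS15 alone in both WT RIP libraries.

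The ASI1 RIP libraries held the 40S transcripts in an all-or-little pattern, and the replicates held only partly the same members. At least 20 counts were reached by 7 members in both replicates, 13 in replicate 1 alone and 6 in replicate 2 alone. In replicate 1, 20 of the 28 listed members had at least 20 counts and 4 were at 0; in replicate 2, 13 had at least 20 counts and 6 were at 0. Members with at least 20 counts had a median of 95.1 counts in replicate 1 and 95.03 in replicate 2. Only 1 member in each replicate lay between 20 and 40 counts and 1 between 10 and 20. The members with at least 20 counts held 99.0% and 97.8% of all 40S counts of these libraries. At the depth of the ASI1 input 20 counts lie above the level of every member, so the input gives no comparison for this share.

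All listed genes showed a like pattern. At least 20 counts were reached by 71.4% of the listed members in ASI1 RIP replicate 1, beside 71.1% of all genes listed for ASI1, and by 46.4% in replicate 2, beside 60.2%. Both replicates covered 7 of the 28 members (25%), beside 35.8% of all listed genes. Replicate 1 alone covered 13 members (46.4%, beside 35.4% of all listed genes) and replicate 2 alone 6 (21.4%, beside 24.4%). There were 2 members covered in neither (7.14%, beside 4.46%). Spearman's rho between the ASI1 RIP replicates was -0.234 over the 28 members and -0.0142 over all 4016 genes. These are descriptions over genes that share libraries, depth and the listing filter.

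**Figure D2:**
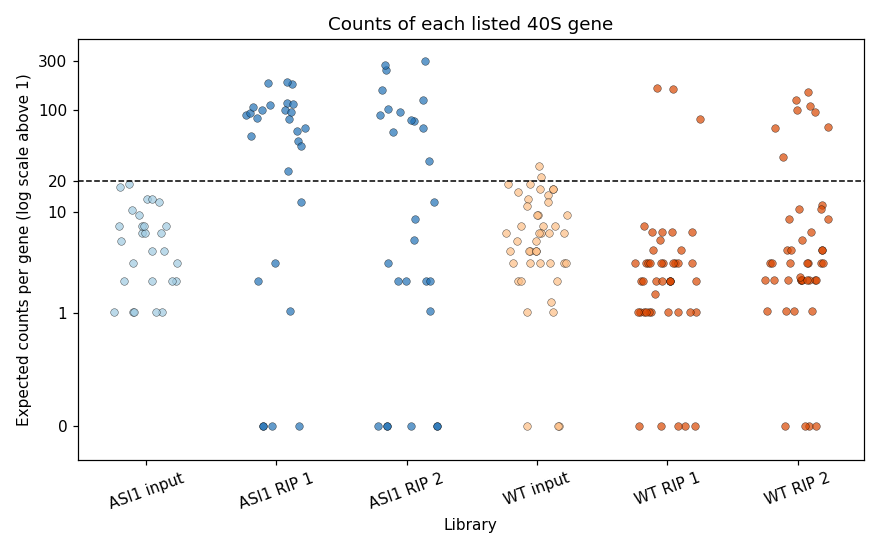
Expected counts of each listed 40S gene (points) in each library, on an axis that is logarithmic above 1 count and linear below, with a dashed line at 20 counts. In the ASI1 RIP libraries the points part into genes of at least 25.1 and 31.3 counts and genes of at most 12.5 counts, and in the WT RIP libraries 42 and 37 of 45 genes lie below the line.

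The 7 members covered in both ASI1 RIP libraries were the 3 RPS4 genes, AT5G62300, AT2G31610, AT4G34670 and AT4G39200. RPS4 is a protein of the body of the subunit. AT2G17360 reached 65.9 and 65.8 counts with ASI1 RIP and 6.17 before it, or 147 and 182 CPM outside rRNA against an input of 259. AT5G07090 stood at 186 and 349 CPM outside rRNA (83.6 and 126 counts), with an input of 259. AT5G58420 stood at 221 and 222 CPM outside rRNA (99.3 and 80.4 counts) against 86.4, on 2.06 input counts. The RPS4 genes thus lay close to one another in both replicates, below the input for AT2G17360, on both sides of it for AT5G07090 and above it for AT5G58420.

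AT5G62300, a gene for RPS20 of the subunit's head, reached 81.5 and 158 counts, or 182 and 436 CPM outside rRNA, over an input of 86.4. AT2G31610, an RPS3 gene whose protein lines the mRNA entry channel, stood at 410 and 216 CPM outside rRNA against 302. The input value of AT2G31610 lay between its RIP replicates. AT4G34670, an RPS3a gene, stood at 259 and 689 CPM outside rRNA against 734, and AT4G39200, an RPS25 gene, at 221 and 86.5 against 173. Of all listed members, AT5G62300 and AT5G58420 were above the input in both replicates, which is 2 of 28 beside 23.6% of all genes listed for ASI1. Below the input in both replicates were 10 of 28 members, beside 24.4% of all genes. Replicate 1 taken alone was above the input for 12 members, beside 52% of all genes, and replicate 2 for 8, beside 47.3%. Per kilobase, the highest mean levels of the ASI1 RIP were 434 CPM outside rRNA for RPS13A, 393 for AT5G62300 and 382 for AT4G34670. The median over the listed members was 128. The mean of RPS13A rests on replicate 2, as the gene was at 0 in replicate 1.

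Several families were represented by one paralog in one ASI1 RIP replicate and by another paralog in the other. RPS6, the target of S6 kinase in the TOR pathway, has the genes RPS6 (AT4G31700) and EMB3010 (AT5G10360). RPS6 had 96.2 and 1.04 counts in replicates 1 and 2, and EMB3010 had 2.09 and 277. In the RPS16 family AT5G18380 had 112 and 0 counts and AT2G09990 had 0 and 89.8, and these genes are 98.2% identical. In the RPS19 family AT5G61170 had 108 and 2.09 counts and AT3G02080 had 3.14 and 102. Summed over the listed genes, the RPS16 family stood at 249 and 248 CPM outside rRNA and the RPS19 family at 247 and 288 in the ASI1 RIP libraries, so the family sums differed less than the single genes. RPS13A (AT4G00100), known from its pointed-leaf mutant, was at 0 in replicate 1 and at 306 counts in replicate 2, the highest 40S count of that library.

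Of the members listed for ASI1 alone, AT3G52580, an RPS14 gene, had 114 and 2.09 counts in the RIP libraries, and AT2G09990 was given above. Each had 1.03 counts in the ASI1 input. As a whole the listed members held 0.438% of the counts outside rRNA in ASI1 RIP replicate 1 (95% interval 0.419 to 0.458) and 0.486% in replicate 2 (0.463 to 0.509). Both shares lay below that of the single ASI1 input.

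No tested 40S gene was called between the ASI1 RIP and its input, which does not show that none changed. edgeR's quasi-likelihood test called 0 of the 26 tested members higher and 0 lower (Benjamini-Hochberg adjusted p under 0.05, with a log2 fold of 1 or more in size), beside 0.0448% of all 2233 genes tested called higher and 0.0896% lower. No member had an unadjusted p under 0.05 in edgeR (0 of 26), beside 0.0448% of all genes in the higher and 0.224% in the lower direction. DESeq2 called 0 members, beside 0.0862% and 0% of 2319 genes, and had 0 members at an unadjusted p under 0.05, beside 0.302% and 0.129%. The fitted log2 folds ran from -5.04 for RPS15 to 1.87 for AT5G62300, with a median of -0.27 over the members and 0.10 over all genes tested. The smallest adjusted p of a member was 0.9997. Scaled by TMM (the trimmed mean of M-values), the median of all genes moved to 1.06 and that of the members to 0.61, so the sign of the members' median depends on the scaling while it stayed below that of all genes. Without ASI1 RIP replicate 1 the members' median was -1.25.

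The WT RIP gives the background of the precipitation, and there the 40S transcripts were sparse apart from a few high ones. In WT RIP replicate 1, 3 of the 45 listed members had at least 20 counts, and these were RPS10B, AT2G31610 and RPS15. In WT RIP replicate 2, 8 members had at least 20 counts. These shares were 6.67% and 17.8%, beside 3.94% and 18.6% of all genes listed for WT. Of the remaining members, none had more than 7.27 counts in replicate 1 or 11.5 in replicate 2, and 34 and 26 of 45 had 3 counts or fewer after rounding. RPS15 alone was covered in both replicates, 1 of 45 members beside 1.31% of all genes.

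RPS10B (AT5G41520), a gene for the eukaryote-specific protein at the beak of the subunit, had 163 counts in WT RIP replicate 1 and 2.10 in replicate 2, against 3.09 in the input. These make 7000.5, 20.3 and 50.1 CPM outside rRNA. AT2G31610 had 162 and 2.10 counts against 16.5, or 6956 and 20.3 CPM outside rRNA against 267. Both genes were high in replicate 1 alone. RPS15 had 82.1 and 124 counts against 18.5, or 3523 and 1196 CPM outside rRNA against 301. Both WT RIP values of RPS15 lay above its input.

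In WT RIP replicate 2 the covered members were RPS15 and 7 that were not covered in replicate 1. AT3G02560 (RPS7 family), listed for WT alone, had 110 counts in replicate 2, 0.00443 in replicate 1 and 3.09 in the input. AT3G53870 (RPS3 family) had 98.7 counts in replicate 2 and 2.08 in replicate 1, and EMB3010 had 95.5 and 3.12. AT3G53890, an RPS21 gene listed for WT alone, had 67.2 and 2.08 counts, AT4G34670 66.1 and 4.16, and AT4G39200 34.6 and 6.23. AT3G04840, an RPS3a gene listed for WT alone, stayed under 20 counts, at 5.20 and 10.5 against 6.18 in the input. AT4G39200, AT3G53890 and AT3G53870 lay above the input in both replicates as CPM outside rRNA, at 268 and 335 against 117 for the first. For AT3G53890 and AT3G53870 the replicate 1 value rests on 2.08 counts, which is under the level of 3 counts and could not be told from 0. Per kilobase, the highest mean levels of the WT RIP were 3483 CPM outside rRNA for RPS10B, 2885 for AT2G31610 and 2556 for RPS15. The median was 77.8. The means of RPS10B and AT2G31610 rest on replicate 1.

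The summed share of the 45 members was 2.20% in WT RIP replicate 1 (95% interval 2.02 to 2.40) and 0.843% in replicate 2 (0.788 to 0.901), against 0.555% in the WT input. RPS10B alone gave 31.8% of the 40S counts of replicate 1. The members with at least 20 counts gave 79.4% and 85.4%; the members under 20 counts, a set that each library's own values and depth fix, summed to 0.453% and 0.123%.

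**Figure D3:**
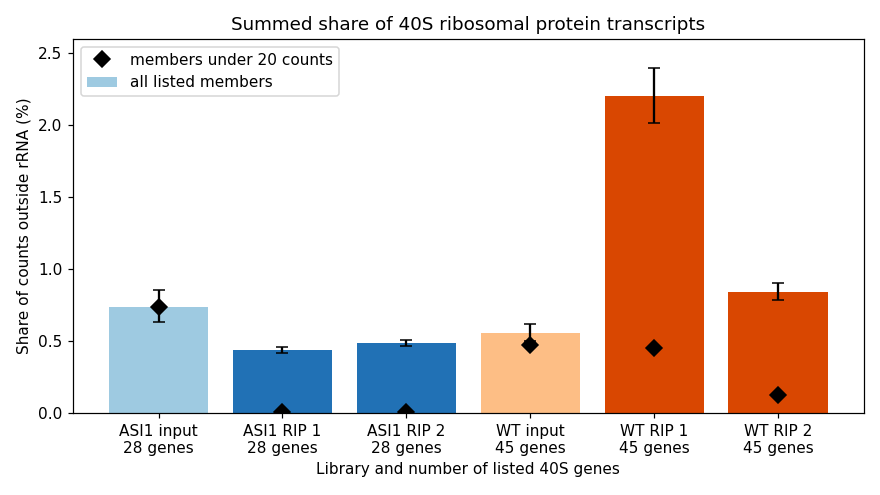
Share of the counts outside rRNA taken by all listed 40S genes in each library (bars, in percent, with exact 95% binomial intervals for counting error) and by the genes under 20 counts (diamonds). The bars stand at 0.438% and 0.486% in the ASI1 RIP libraries and at 2.20% and 0.843% in the WT RIP libraries, and the number of listed genes is 28 for ASI1 and 45 for WT.

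Against the WT input, 9 of 45 members were above it in both RIP libraries, beside 15.5% of all genes listed for WT, and 17 of 45 were below it in both, beside 54.5%. Of the members above it, 3 were at 0 in the WT input, where the listing filter by itself puts both RIP values above the input. The same filter acts on the share over all genes. Replicate 1 taken alone was above the input for 24 members, beside 32.6% of all genes, and replicate 2 for 13, beside 28.3%. edgeR called 0 of the 26 tested members in either direction, beside 0.0448% of 2233 genes higher and 0% lower. No member had an unadjusted p under 0.05 in edgeR, beside 0.224% of all genes higher and 0.493% lower. DESeq2 called 0 members, beside 0% of genes, and had RPS10B alone at an unadjusted p under 0.05 (adjusted p = 0.998), beside 2.29% of genes higher and 0.345% lower. The fitted log2 folds ran from -4.75 to 6.15, the last for RPS10B, with a median of -0.19 over the members and -1.39 over all genes. With TMM scaling these medians were 0.96 and -0.10, so the members' median again changed sign. With the WT table fitted alone, 21 of the 45 members passed the filter on low counts, and their median lay 0.30 below that of all genes tested there. Without WT RIP replicate 1 the members' median was -1.32, and 0.40 above that of all genes.

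The ASI1 RIP was set directly against the WT RIP over the 26 members listed for both. The groups overlapped for 20 of them. Both ASI1 RIP libraries lay above both WT RIP libraries for 4 members, the 3 RPS4 genes and AT5G62300, beside 26% of the 2319 genes listed for both outside rRNA. Both lay below for 2 members, RPS15 and AT4G39200, beside 4.74% of all genes. Leaving out a library moved the first count to between 5 and 11 and the second to between 6 and 14, as fewer libraries have to be apart. With at least 20 counts asked of both libraries of the higher group, the counts were 4 and 1, the last being RPS15.

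**Figure D4:**
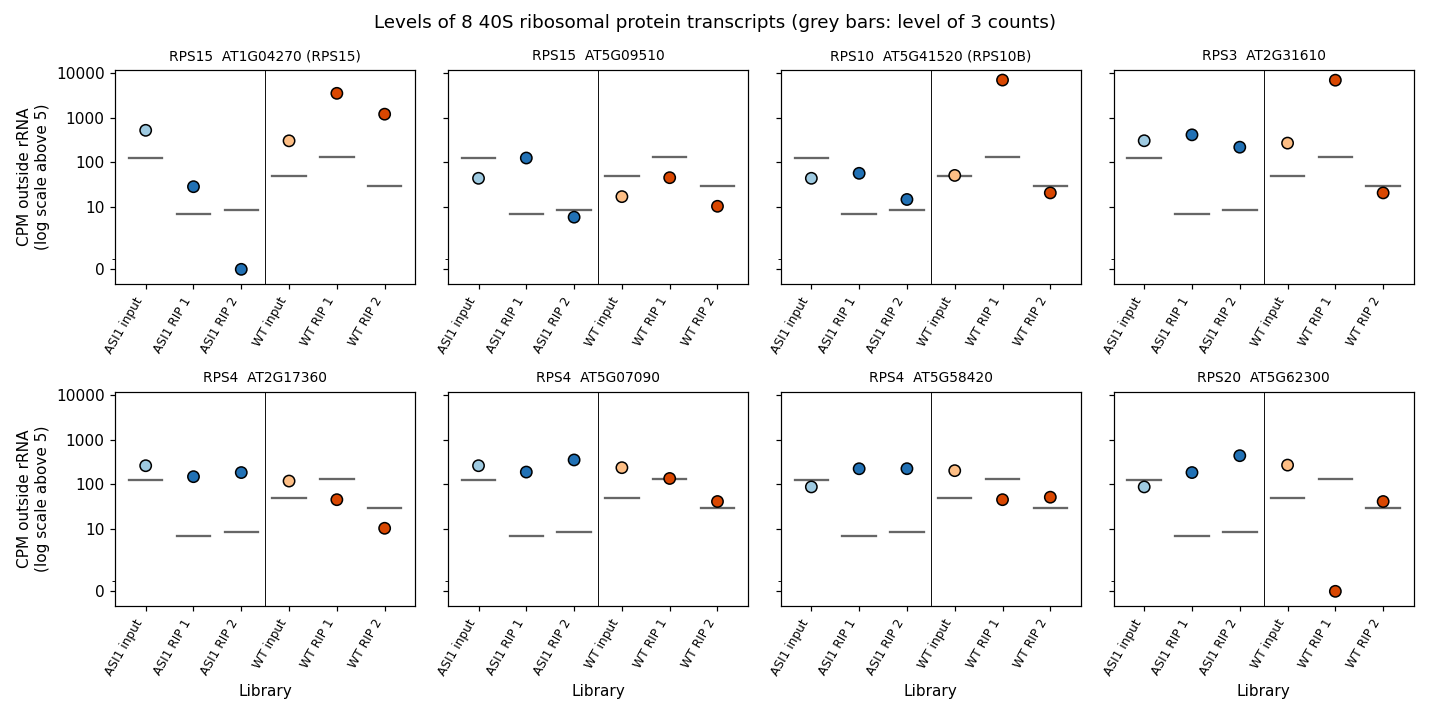
Level of 8 members in each library, as CPM outside rRNA on an axis that is logarithmic above 5 and linear below; grey bars mark the level that 3 counts give in that library. RPS15 lies at 28.0 and 0 in the ASI1 RIP and at 3523 and 1196 in the WT RIP, while the RPS4 genes lie at 147 to 349 in the ASI1 RIP and at 134 or below in the WT RIP.

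RPS15 was the member furthest apart between the RIP groups. ASI1 RIP replicates 1 and 2 held 12.5 and 0 of its counts, or 28.0 and 0 CPM outside rRNA, and the WT RIP replicates 3523 and 1196. The 0 allows up to 8.29 CPM outside rRNA (3 counts). Its inputs were 518 and 301 CPM outside rRNA in ASI1 and WT. The pooled ASI1 RIP share was 0.00953 times the pooled WT RIP share (95% counting interval 0.00517 to 0.0173), and the input ratio was 1.72 (0.724 to 3.55). The fitted log2 fold of RPS15 was -7.26 (SE 2.89, edgeR adjusted p = 0.887). DESeq2 called it lower, at -8.57 (SE 2.10, adjusted p = 0.00440). Over the 11 alternatives the log2 fold ran from -11.08 to -6.29 and its adjusted p from 0.00440, with DESeq2, to 1. Its paralog AT5G09510 had 55.4 and 2.09 counts in the ASI1 RIP and 1.04 and 1.05 in the WT RIP, a ratio of 4.31 (1.18 to 37.7). The pooled ratios of the paralogs lay on opposite sides of 1, but their intervals cover counting error only. For AT5G09510 the groups overlapped, its ASI1 counts rest on replicate 1, and its WT counts could not be told from 0. Its log2 fold was 1.41 (SE 5.24, edgeR adjusted p = 0.924), so an opposite direction of the paralogs was not shown.

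RPS10B came next, at 25.1 and 5.22 counts with ASI1, or 55.9 and 14.4 CPM outside rRNA. Its WT RIP values of 7000.5 and 20.3 lie on either side of these, so the groups overlapped, and the difference rests on WT RIP replicate 1. The pooled ratio of RPS10B was 0.0287 (0.0186 to 0.0422). Its log2 fold was -6.62 (SE 2.59, edgeR adjusted p = 0.887) and -7.78 with DESeq2 (adjusted p = 0.0175), which called it lower. Over 10 alternatives the log2 fold ran from -7.88 to -3.91 and its adjusted p from 0.0175 to 1. Without WT RIP replicate 1 RPS10B did not pass the filter on low counts. The other RPS10 genes, AT4G25740 and AT5G52650, were in neither table.

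Also among the 5 lowest pooled ratios of members with at least 50 RIP counts were 0.146 for AT3G53870 (95% interval 0.109 to 0.195) and 0.250 for AT2G31610 (0.205 to 0.306). In both of these genes a single WT RIP replicate carried the WT counts, and the groups overlapped. AT3G53870 stood at 210 and 0 CPM outside rRNA in ASI1 against 89.2 and 953 in WT.

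Pooling weights the libraries of a group by their depth, so the order of the ratios depends on that weighting. The highest pooled ratios were 15.3 for RPS13A (95% interval 5.41 to 77.8), 9.86 for AT2G17360 (2.80 to 86.2) and 9.12 for RPS5B (3.22 to 46.7). They were followed by 8.92 for AT5G62300 (3.60 to 34.6) and 8.22 for AT5G61170 (2.33 to 72.0). RPS13A rests on ASI1 RIP replicate 2, with 0 counts in replicate 1, against 2.08 and 1.05 counts in WT. RPS5B (AT2G37270) had 180 and 3.13 counts in ASI1 against 1.04 and 2.10 in WT. AT5G62300 and AT2G17360 were high in both ASI1 RIP libraries, against 0 and 4.20 and against 1.04 and 1.05 counts in WT. With each library weighted equally, a choice made after the values were seen, the ratio of mean CPM outside rRNA was 15.2 for AT5G62300, 14.3 for AT3G02080, 8.51 for RPS13A, 6.31 for RPS5B, 6.003 for AT2G17360 and 4.49 for AT5G61170. The lowest ratios with this weighting were 0.00593 for RPS15, 0.0100 for RPS10B and 0.0898 for AT2G31610, and that of AT3G53870 was 0.201. With so few WT counts the intervals are wide. They cover counting error only, and the replicates of a genotype differed by far more than counting error.

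**Figure D5:**
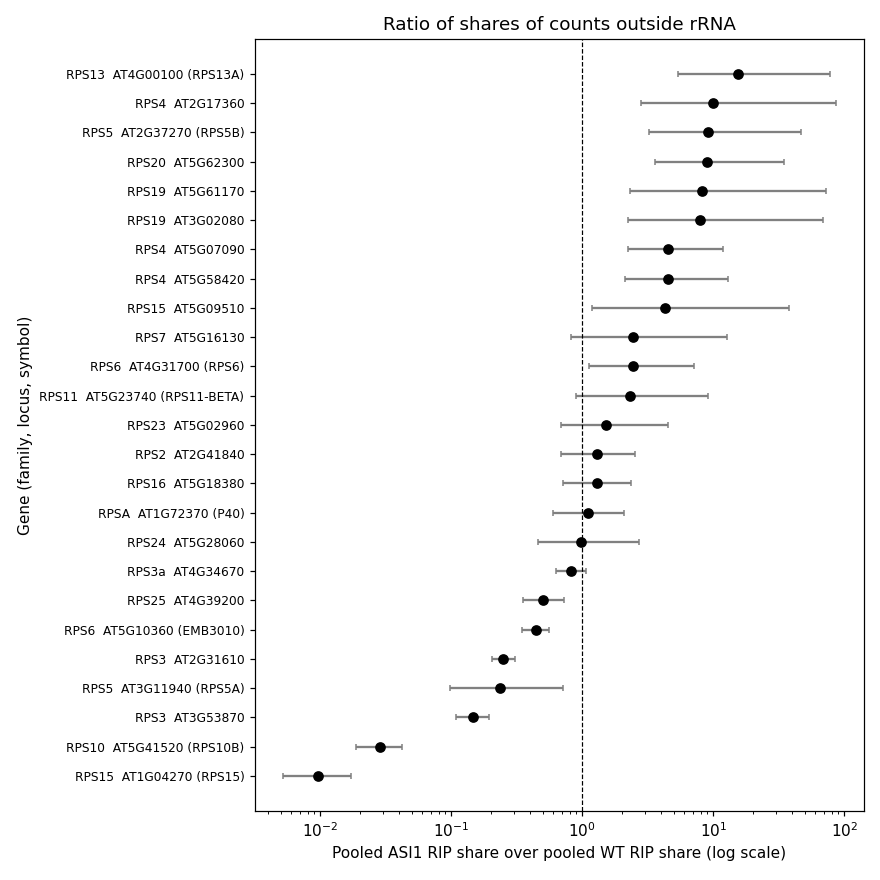
Ratio of the pooled ASI1 RIP share to the pooled WT RIP share of counts outside rRNA for members listed for both genotypes (points, log axis; 1 family is not shown), with 95% counting intervals. RPS15 stands lowest at 0.00953 and RPS13A highest at 15.3 in this pooled order, which changes at the high end when libraries are weighted equally, and the intervals do not include the spread between replicates.

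edgeR called 0 of the 26 members in either direction between the RIP groups, beside 0% of 2233 genes, with RPS15 and RPS10B as the 2 members at an unadjusted p under 0.05. Among all genes 0.717% were lower and 0.582% higher at that unadjusted threshold. DESeq2 called these same 2 members lower and 0 higher, beside 0.647% of 2319 genes lower and 0.0862% higher. Of the members, only RPS15, RPS10B and AT2G31610 were given an adjusted p by DESeq2 here, so the others could not be called. The percentages are of all 2319 genes, with any gene lacking an adjusted p counted as not called. At an unadjusted p under 0.05 DESeq2 had 3 members, RPS15, RPS10B and AT2G31610, all lower, beside 4.7% of genes lower and 1.51% higher. The median log2 fold was 0.30 over the members and 1.89 over all genes, and 7 of 26 members lay above the median of all genes. With TMM scaling the medians were -0.20 and 1.28, and with DESeq2 -0.77 and 0.69. The members' median changed sign with the scaling and lay below that of all genes under each. It was 1.48 without WT RIP replicate 1 and -1.02 without ASI1 RIP replicate 1.

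By family, at least one paralog reached 20 counts in an ASI1 RIP library for 20 of the 25 families and in a WT RIP library for 9, with 8 in both sets. The RPS21 family was covered in WT alone, through AT3G53890. The ASI1 RIP libraries were deeper outside rRNA than the WT RIP libraries, so coverage alone does not compare the genotypes. As CPM outside rRNA summed over its genes, all 3 listed for both genotypes, RPS4 stood at 555 and 753 in the ASI1 RIP and at 223 and 101 in the WT RIP, against 605 and 552 in the inputs. The WT RIP sums rest on only 5.20 and 10.5 counts over the 3 genes.

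The difference in enrichment, ASI1 RIP over input minus WT RIP over input, asks for recovery beyond background. edgeR called 0 of 26 members, beside 0% of 2233 genes in each direction, with no member at an unadjusted p under 0.05, beside 0.0448% in each direction. DESeq2 called 0 members, beside 0% of genes, with RPS15 alone at an unadjusted p under 0.05, beside 0.474% of genes lower and 0.302% higher. The median log2 difference was -1.26 over the members and 1.28 over all genes. RPS15 had the lowest value, -7.97 (SE 4.51, edgeR adjusted p = 0.9998), and AT5G62300 the highest, 5.29 (SE 5.01, adjusted p = 0.9998). The members' median was -0.24 without WT RIP replicate 1, -0.58 without ASI1 RIP replicate 2 and -1.87 without ASI1 RIP replicate 1. Each genotype has 1 input with fewer than 28 counts per member, and the biological coefficient of variation of the fit was 1.47, so changes of the size seen here could not be told from the spread.

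In the authors' deposited table for ASI1 the 28 members had log2 folds of RIP over input from -5.06 to 1.95, with a smallest p of 0.218 and every FDR at 1. In the authors' deposited table for WT the 45 members ran from -3.59 to 5.99, with a smallest p of 0.177 and every FDR at 1.

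Other genes of translation were read beside the 40S members, and no gene of these lists passed the test. Of 210 genes annotated as large subunit (60S or L-type) proteins, 58 were listed for ASI1 and 115 for WT; the annotation may include organellar proteins. They summed to 12836 CPM outside rRNA in the ASI1 input, 10128 and 8281 in the ASI1 RIP, 24133 in the WT input, and 27422 and 15582 in the WT RIP. edgeR called 0 of the 52 tested in any contrast, and DESeq2 called 0. At an unadjusted edgeR p under 0.05 there were 2 in the direct comparison, beside 29 of all 2233 genes. In the WT RIP over input there was 1, beside 16 of all 2233 genes. Their median log2 fold in the direct comparison was 0.72, against 0.30 for the 40S members and 1.89 for all genes.

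The RACK1 genes, which encode a scaffold on the 40S head, had 1 of 3 listed for ASI1 and 3 of 3 for WT, and their CPM outside rRNA summed to 135 and 329 for ASI1 RIP and to 268 and 71.0 for WT RIP. TOR and the S6 kinases had 1 and 2 of 3 listed, at a sum of 0 and 427 in the ASI1 RIP and 44.6 and 71.0 in the WT RIP. Of 17 initiation and poly(A)-binding genes 10 were tested, with a median log2 fold of 1.03 between the RIP groups, and of 7 ribosome biogenesis genes 3 were tested, with a median of 3.81. edgeR and DESeq2 each called 0 of these genes, and none had an unadjusted edgeR p under 0.05.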

How the data were processed

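RNA was measured in 6 RIP-seq libraries, grouped by their labels. The authors deposited, per the file headers, expected counts per gene for 1 input and 2 RIP libraries of each genotype; the same deposited tables give CPM, the authors' log2 fold change and mean log2 CPM, and the authors' p-value and FDR. STAR 2.6.0c, Salmon 0.10.2 and edgeR are named in the submitters' processing notes; no role, build or use of strand is given in the sources used here, so antisense reads cannot be told apart. Deposited CPM were recomputed from the counts and matched, so totals are those of the listed genes.

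The 4 rRNA genes were left out. Expected counts of the genes listed in both tables were rounded and fitted together with edgeR 4.0.16 (glmQLFit, glmQLFTest; limma 3.58.1, R 4.3.3), with the counts outside rRNA of each library as its size and filterByExpr; this left 2233 genes and 2 residual degrees of freedom. Alternatives were DESeq2 1.42.0, TMM scaling, other filters, no abundance trend, a replicate block, each table alone and leaving out each RIP library. The script was tested on simulated data. Ratios of shares have exact conditional binomial intervals. An SE beside an edgeR p was back-computed, as the size of the log2 fold over the square root of the test's F statistic. The SE beside a DESeq2 p is the one DESeq2 gives. Levels per kb use the longest annotated transcript. Coding sequences were aligned with Biopython 1.88 on RefSeq TAIR10.1; other steps used Python 3.11.15 with pandas 2.3.3, numpy 2.4.6, matplotlib 3.10.9 and scipy 1.17.1.

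The members and lists were chosen with earlier results of these data known. Members are named with values if they had an unadjusted edgeR p under 0.05 or a call, were among the 5 highest or lowest pooled RIP ratios with at least 50 RIP counts, among the 3 highest levels of a group, covered (at least 20 counts) in both RIP libraries of a genotype, among the 3 highest of those listed in 1 table, or paralogs of a called member. The RPS6 and RPS16 paralogs of opposite replicates, and family sums, were chosen after their values were seen. The values of 1 named member and its family are not reported here; counts and sums over the members include it.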

Additional observations from a re-analysis of the deposited data

Results flagged for a closer look

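RPS15 (AT1G04270) was lower than the input in both ASI1 RIP libraries and higher than the input in both WT RIP libraries. The fitted ASI1 minus WT log2 difference in enrichment was -7.97 (edgeR adjusted p = 0.9998, and 0.95 to 1 over its alternatives), so the difference did not pass the test. Of all 2319 genes listed for both outside rRNA, 2.85% showed this order.

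The reverse order, above the input in both ASI1 RIP libraries and below it in both WT RIP libraries, was shown by AT5G58420 (RPS4 family) and AT5G62300 (RPS20 family), 2 of 26 members beside 12.03% of all genes. Their log2 differences were 3.45 and 5.29 (edgeR adjusted p = 0.9998 for each, and 0.95 to 1 over the alternatives). Each ASI1 input value rests on 2.06 counts.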

How the results depend on the processing

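With 2 RIP libraries a group and 1 input, the calls of members stayed at 0 in every contrast and alternative except 2 lower calls by DESeq2 between the RIP groups, where it called 17 genes in all against 0. Calls over all genes in the ASI1 RIP over input (3) were 1 with TMM scaling, 1 with TMM and rRNA kept, 0 without the abundance trend, 5 with the table fitted alone, and 0 to 2 without a RIP library. In the WT RIP over input (1) they were 0 with DESeq2, without a filter, without the trend and with the table alone, 3 with at least 20 counts in 2 libraries, 2 with the replicate block, and 0 to 0 without a RIP library. The 40S median log2 fold in ASI1 (-0.27) was 0.61 with TMM and 0.71 with rRNA kept, and -1.25 to -0.28 without a library. In WT (-0.19) it was 0.65 with DESeq2, 0.96 with TMM, 0.86 with rRNA kept, 0.96 with at least 20 counts, 0.90 with the replicate block, 0.62 with the table alone, and -1.32 to -0.38 without a library. The median difference was -1.87 to -0.24 without a library. Between the RIP groups (0.30) it was -0.77 with DESeq2, -0.47 with at least 20 counts, -1.05 with the replicate block, and -1.02 to 1.48 without a library. The cause of these moves was not tested. The deviations of same-numbered replicates correlated at -0.00548 across 2233 genes. Replicates of a genotype hardly correlated themselves (Spearman's rho -0.0142 over all ASI1 genes and 0.0993 over all WT genes). The value therefore cannot show whether the numbers pair the samples. The block changed no call of a member.

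The 40S share of all listed counts, rRNA included, was 0.00392% in the ASI1 input, 0.0766% and 0.0975% in the ASI1 RIP, 0.00536% in the WT input, and 0.428% and 0.166% in the WT RIP. Over the members in both tables the share outside rRNA was 0.413% and 0.460% in the ASI1 RIP, 0.428% in the WT input, and 1.99% and 0.621% in the WT RIP. Without the most abundant member it was 0.396% and 0.401% in the ASI1 RIP and 1.5004% and 0.699% in the WT RIP. Without members of at least 20 counts, added after the data were seen and removing a set that each library itself fixes, it was 0.00419% and 0.0107% in the ASI1 RIP, 0.475% in the WT input, and 0.453% and 0.123% in the WT RIP. At least 10 counts were reached by 6 members in the ASI1 input and 12 in the WT input, and at least 50 by 0 in the WT input. Also added after the data were seen, members with both ASI1 RIP libraries above WT numbered 5 to 11 without a library, and those below 6 to 14, or 1 with at least 20 counts asked. A level under 3 counts, up to 129 CPM outside rRNA in WT RIP replicate 1, could not be told from 0.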
